A study of Mus musculus with 6 samples.

Results

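A panel of 10 genes that glucocorticoid hormones switch on in many tissues, *Fkbp5*, *Tsc22d3*, *Sgk1*, *Zbtb16*, *Ddit4*, *Klf9*, *Arrdc2*, *Arrdc3*, *Cebpd* and *Mt2*, was followed in lungs of mice with mutant EGFR-driven cancer on a high-fat diet (LC-HFD) or a regular diet (LC-RD). Each gene was read by every probe set that the annotation of the array platform assigns to it alone. That gave 24 of 45037 probe sets and 10 of 18193 genes. The rule that assigned probe sets to the genes used no measured value, but the genes were chosen with earlier results of these data known. The brightest probe set of a gene, by mean log2 value over the 6 arrays, is called its lead.

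Both groups carried the same double transgene, Tg(CC10-rtTA/tet-O-EGFR-L858R), on a C57BL/6 background. In it the CC10 promoter, which is active in airway epithelium, drives an activator that switches on a mutant human EGFR when doxycycline is present. The mice were male and 6 weeks old when the diets began. HFD or RD came first, for 2 weeks, and was continued with doxycycline for 8 weeks, although the sample labels put the doxycycline phase at 7 weeks. Doxycycline was given at 625 ppm in the diet and at 2 mg/ml in the drinking water, and fat supplied 60% of the energy of HFD. Whole-lung RNA of each mouse went onto its own Affymetrix expression array, 3 for LC-HFD and 3 for LC-RD. On this array 1 gene can have several probe sets, which target different stretches of its transcripts. Tumor and other lung tissue were not separated, so in these bulk samples fewer cells of a type and less RNA per cell cannot be told apart.

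Glucocorticoids such as corticosterone enter cells and bind the glucocorticoid receptor, which is held ready in the cytoplasm by the chaperone Hsp90. The bound receptor moves to the nucleus and attaches to short palindromic DNA elements, often far from the gene it controls. The genes it induces limit inflammation, adjust metabolism and feed back on the receptor itself. In the lung the hormone is known for maturing the alveolar epithelium before birth and for calming airway inflammation. Several of these genes also answer other cues, such as zinc, hypoxia, growth factor withdrawal and the circadian clock.

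Promoter windows from RefSeq (GRCm38.p6), the 250 bases before a transcription start, were available for 8 of the 10 genes, with 17 windows in all. *Sgk1* had 6 of them, *Tsc22d3* and *Arrdc3* had 3 each, and every other gene with a window had 1. The full palindromic glucocorticoid response element was searched as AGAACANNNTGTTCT, its half-site as AGAACA and the core of the metal response element as TGCACNC or TGCGCNC, on both strands. A full element also contains 2 half-sites. A single window of the 17 held the full element, which 3 of 32851 windows of all genes hold (0.00913%). That window belongs to *Sgk1*, at chr10:21993640-21993889 on the plus strand, and the element begins 189 bases before the start site. The half-site was found in 4 of the 17 windows, 3 of *Sgk1* and 1 of *Tsc22d3*, and in 16.1% of all windows. Core metal elements were in 4 windows, of *Mt2*, *Ddit4* and *Arrdc3*, and in 21.4% of all windows. The *Mt2* window at chr8:94172368-94172617, plus strand, held 3 of them. The *Tsc22d3* window with a half-site lies at chrX:140600523-140600772 on the minus strand. Those 3 windows are shown because the genes behind them ranged from a large decrease to no detected change. Capitals mark the glucocorticoid elements in *Sgk1* and *Tsc22d3* and the metal cores in *Mt2*. A match in letters is a description and does not show binding.
Sgk1: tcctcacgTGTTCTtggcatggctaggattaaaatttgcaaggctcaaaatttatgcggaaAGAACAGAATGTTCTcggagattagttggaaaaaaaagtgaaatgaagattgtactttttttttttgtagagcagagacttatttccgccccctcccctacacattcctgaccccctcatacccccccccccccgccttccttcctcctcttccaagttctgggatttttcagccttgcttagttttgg
Tsc22d3: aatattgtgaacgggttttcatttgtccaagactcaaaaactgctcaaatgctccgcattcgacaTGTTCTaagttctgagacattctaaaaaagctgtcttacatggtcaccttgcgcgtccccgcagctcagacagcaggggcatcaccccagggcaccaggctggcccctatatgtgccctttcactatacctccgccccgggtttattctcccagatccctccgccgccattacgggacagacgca
Mt2: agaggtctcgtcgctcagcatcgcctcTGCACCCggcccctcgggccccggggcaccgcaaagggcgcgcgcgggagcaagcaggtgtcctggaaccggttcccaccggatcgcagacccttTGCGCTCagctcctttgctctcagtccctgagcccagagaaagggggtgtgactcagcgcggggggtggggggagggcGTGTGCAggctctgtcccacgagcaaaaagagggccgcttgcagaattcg

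In LC-HFD lungs 7 of the 10 genes were lower by their lead probe set, *Arrdc3*, *Sgk1*, *Ddit4*, *Mt2*, *Cebpd*, *Zbtb16* and *Fkbp5*, and 0 were higher. *Klf9*, *Tsc22d3* and *Arrdc2* did not pass by their leads. Each probe set was compared with limma over all 45037 probe sets, and it passed when the Benjamini-Hochberg adjusted p was under 0.05. At an unadjusted p under 0.05 the leads gave 8 lower and 0 higher, and the methods' t-test with the same adjustment also gave 8 and 0. Among leads of all genes 16.2% were lower and 11.1% higher, and among the 9084 leads whose mean was 6 log2 units or more, which include 9 of these 10, 23.4% were lower. All 3 LC-HFD lungs lay under all 3 LC-RD lungs in 8 of the 10 leads, against 26.8% of all leads and 40.9% of those brighter leads. The median log2 difference of the 10 leads was −0.73, against 0.02 over all leads. *Arrdc3*, *Sgk1* and *Ddit4* changed over 2-fold, and 1.07% of all leads were lower by that much. The paper's own list of genes lowered over 2-fold on these arrays also holds them. It holds *Zbtb16* too, by a probe set that is not among those read here.

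**Figure D1:**
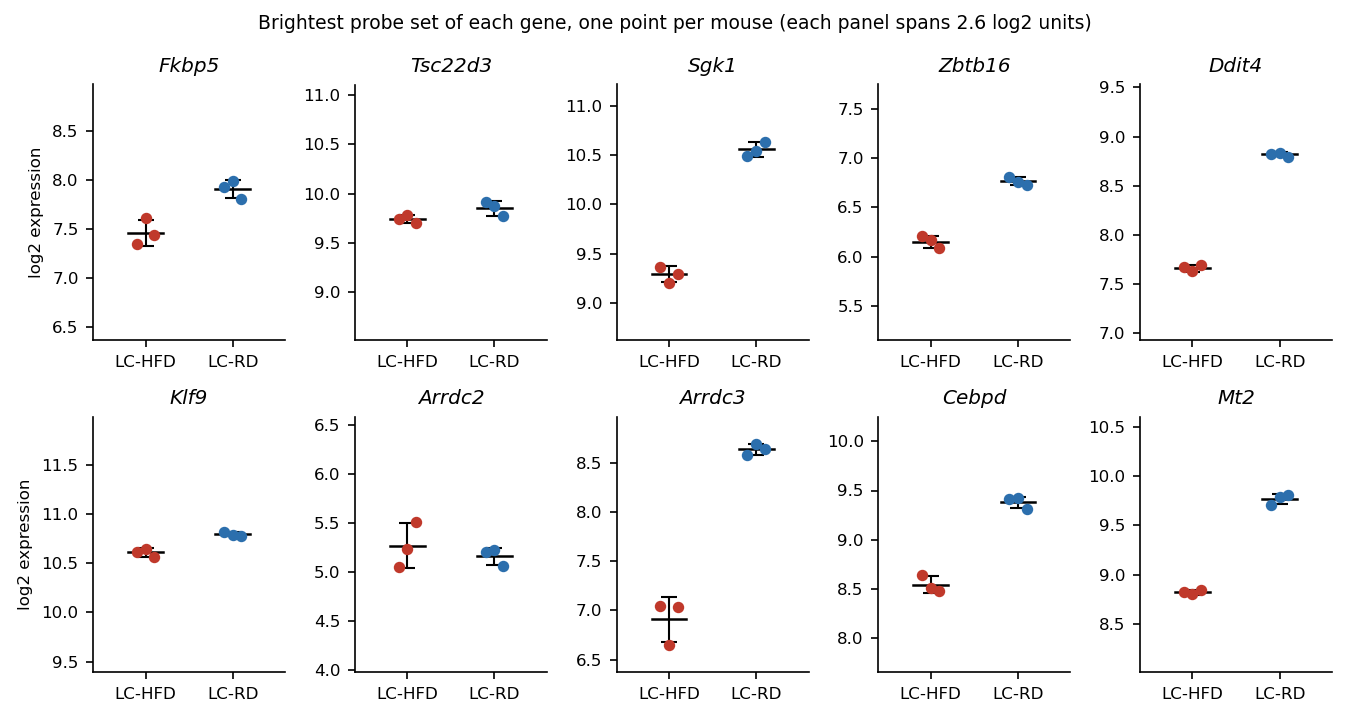
Log2 expression (vertical axis) of the lead probe set of each gene in LC-HFD (red, left) and LC-RD lungs (blue, right). Each point is 1 mouse, and lines and bars are the mean and SD of 3 mice; the groups lie apart in 8 panels, and the points of *Tsc22d3* and *Arrdc2* overlap.

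Counted over all 24 probe sets, 14 were lower (58.3%), 0 higher and 10 did not pass by limma. The background was 13.6% lower and 11.3% higher among all probe sets. Without adjustment 15 were lower and 1 higher at p under 0.05, and the methods' t-test with adjustment gave 15 and 1, with 9.91% of all probe sets lower by that test. All 3 LC-HFD values lay under all 3 LC-RD values in 17 of the 24, against a background of 21.8%, and above them in 1 of the 24, against 22.0%. A decrease over 2-fold was seen in 3 of the 24 and in 1.06% of all probe sets. Their median difference was −0.30, with 0.04 over all probe sets. Mice of a group differed little in these probe sets, whose SD had a median of 0.0708 in LC-HFD and of 0.0592 in LC-RD. The SD was larger in LC-HFD for 17 of the 24, and for 66.2% of all probe sets.

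**Figure D2:**
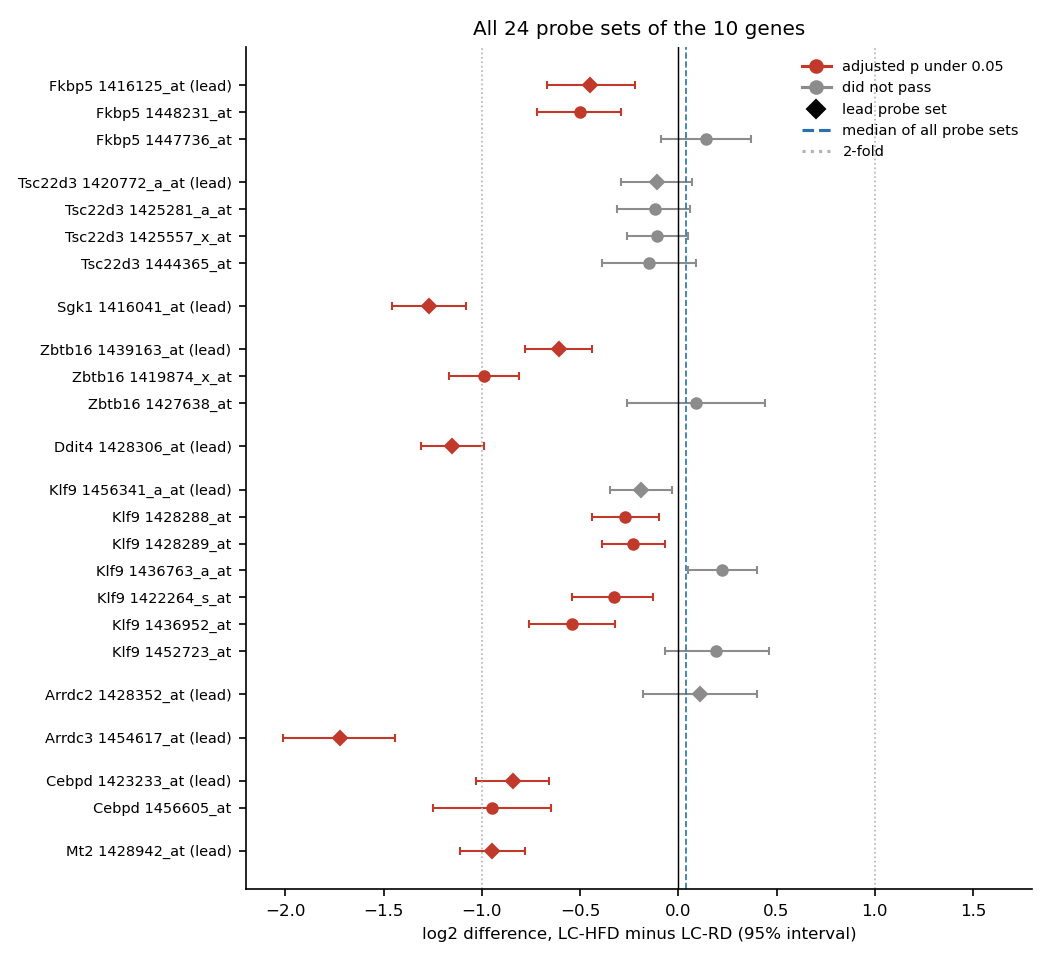
Log2 difference, LC-HFD minus LC-RD, with its 95% interval (horizontal axis) for every probe set, grouped by gene with the lead as a diamond. Red probe sets passed by limma; the dashed line is the median of all probe sets, 0.04, and the dotted lines mark 2-fold, which *Arrdc3*, *Sgk1* and *Ddit4* exceed.

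Control probe sets also set the arrays of the groups apart. The added hybridization controls had a mean log2 value of 11.5 ± 0.0254 for LC-HFD, against 10.0 ± 0.0168 for LC-RD (SD, n = 3 arrays each), and 18S rRNA differed by −4.92 with 7.61 for LC-HFD and 12.5 for LC-RD. In every difference given here, diet and the handling of the arrays cannot be told apart. RNA integrity was read from 4 control genes as their 3′ signal less their 5′ signal, which was 1.58 to 1.70 in LC-HFD and 1.70 to 1.76 in LC-RD without overlap (exact permutation p = 0.1, two-sided, the smallest that 3 against 3 arrays allow). With this integrity measure as a covariate, 8 of the 24 probe sets were lower in place of 14, all those of *Arrdc3*, *Sgk1*, *Ddit4*, *Mt2* and *Cebpd* and 2 of *Zbtb16*. Of all probe sets 4.42% were then lower. Since the measure does not overlap between the groups, it and diet cannot be told apart in that fit. The fit is also less precise, and why a call was lost under it was not tested. The tissue was lung by its markers, with alveolar type II markers at a list mean of 12.7 in LC-HFD, against 12.6 in LC-RD, and club cell markers at 11.9 in LC-HFD, against 12.2 in LC-RD.

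*Fkbp5* encodes an immunophilin that binds Hsp90 beside the glucocorticoid receptor and lowers its grip on the hormone, a short feedback loop. Its lead probe set, 1416125_at, read 7.35, 7.61 and 7.44 in LC-HFD lungs, against 7.93, 7.99 and 7.81 in LC-RD lungs. All 3 LC-HFD lungs lay under the lowest LC-RD lung. The log2 difference was −0.45 (95% interval −0.67 to −0.22, limma adjusted p = 0.0149). This call was lost without LC-RD replicate 1 (−0.44, adjusted p = 0.0612), without LC-RD replicate 2 (−0.41, adjusted p = 0.0647) and with the integrity covariate (−0.56, adjusted p = 0.0514). A further probe set, 1448231_at, read 5.67, 5.46 and 5.75 in LC-HFD, against 6.14, 6.12 and 6.12 in LC-RD. It was lower by a difference of −0.50 (limma adjusted p = 0.00867), which the covariate turned to −0.35 (adjusted p = 0.108). The last one, 1447736_at, read 1.91 to 2.19 in LC-HFD and 1.94 to 1.97 in LC-RD, near the bottom of the scale, and did not pass.

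*Tsc22d3* encodes GILZ, a leucine zipper protein that restrains NF-κB and AP-1 and is among the most widely used readouts of glucocorticoid action. Its lead, 1420772_a_at, read 9.74, 9.78 and 9.70 in LC-HFD lungs, against 9.92, 9.87 and 9.77 in LC-RD lungs. The groups overlapped. The log2 difference was −0.11, and its 95% interval of −0.29 to 0.07 holds no change and leaves out a 2-fold decrease. None of its 4 probe sets passed by limma (0 at an unadjusted p under 0.05 and 1 by the methods' t-test with adjustment), and their differences lay close together. They were −0.12 for 1425281_a_at, −0.11 for 1425557_x_at and −0.15 for 1444365_at, and the first 2 of these did not overlap between the groups.

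*Sgk1* encodes a kinase related to AKT that keeps epithelial sodium channels at the cell surface. It read 9.36, 9.20 and 9.29 in LC-HFD lungs, against 10.49, 10.54 and 10.64 in LC-RD lungs. Every LC-HFD lung lay more than 1 log2 unit under every LC-RD lung. The array has a single probe set for the gene, 1416041_at. The log2 difference was −1.27 (95% interval −1.46 to −1.08, limma adjusted p = 0.000231), which is 2.41-fold lower. It kept its call under all 16 alternatives, with differences between −1.31 and −1.18. Of its 6 promoter windows, only the 1 printed above holds the full response element.

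Subunits of the sodium channel, which Sgk1 acts on, were found on both sides. Of 5 measured genes of epithelial sodium transport, 2 were higher by their leads, 1 was lower and 2 did not pass, with a median of −0.03. The count of lower genes was 0 with the integrity covariate and without LC-HFD replicate 3, LC-RD replicate 1 or LC-RD replicate 2. *Scnn1b* and *Scnn1a*, the beta and alpha subunits, rose by 0.68 (adjusted p = 0.00251) and by 0.52 (adjusted p = 0.00475), and *Scnn1g*, the gamma subunit, fell by 0.37 (adjusted p = 0.0201, limma). *Nedd4l* did not pass by its lead (−0.12), but 3 of its 6 probe sets were higher and 1 was lower, within a range of −0.39 to 1.75. The paper's own list of genes raised over 2-fold also holds it.

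Transcription factors among the members differed in the size of their change. *Zbtb16* encodes PLZF, a zinc finger repressor that is also needed for natural killer T cells. Its lead, 1439163_at, read 6.21, 6.17 and 6.09 in LC-HFD lungs, against 6.81, 6.76 and 6.73 in LC-RD lungs, without overlap. The log2 difference was −0.61 (95% interval −0.78 to −0.44, limma adjusted p = 0.00182). A dimmer probe set, 1419874_x_at, read 5.52, 5.46 and 5.61 in LC-HFD, against 6.51, 6.48 and 6.59 in LC-RD, a difference of −0.99 (limma adjusted p = 0.000449). That is −0.38 beyond the lead's, without overlap between the groups (exact permutation p = 0.1, two-sided, the smallest possible, and 0.233 after adjustment over the 14 pairs of a lead with another probe set). The third, 1427638_at, overlapped between the groups at 0.09 (interval −0.26 to 0.44). None of 5 T cell and 3 NK cell markers passed by limma (at an unadjusted p under 0.05, 1 T cell marker was lower and 1 higher, and 0 NK cell markers; 0 by the methods' t-test), and both lists overlapped between the groups. Both were dim, with list means in LC-HFD of 4.9 to 5.17 for T cells and 4.8 to 5.09 for NK cells. What these cells contributed to *Zbtb16* was not tested.

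*Cebpd* encodes C/EBPδ, a leucine zipper factor of the acute phase response and of early fat cell differentiation. Its lead, 1423233_at, read 8.64, 8.51 and 8.48 in LC-HFD lungs, against 9.41, 9.42 and 9.31 in LC-RD lungs. The groups lay well apart. The difference was −0.84 (95% interval −1.03 to −0.66, limma adjusted p = 0.000861), and the other probe set, 1456605_at, fell by 0.95 (adjusted p = 0.00292). Of 3 measured neutrophil markers, *S100a8* and *S100a9* were also lower, at −0.85 and −0.92, and *Csf3r* lay in the other direction at 0.33 without passing. The mean of the list was 7.20 to 7.34 in LC-HFD, against 7.66 to 7.83 in LC-RD, and its part in the decrease of *Cebpd* was not tested.

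*Klf9* encodes a Krüppel-like factor that glucocorticoids and thyroid hormone induce. It was the member with the most probe sets, and their differences had both signs. The lead, 1456341_a_at, read 10.61, 10.65 and 10.56 in LC-HFD lungs, against 10.82, 10.79 and 10.78 in LC-RD lungs. These groups did not overlap, but the difference of −0.19 did not pass (95% interval −0.35 to −0.03, limma adjusted p = 0.0850). It passed with the methods' t-test, with an intensity trend and with either filter on dim probe sets. Of its 7 probe sets 4 were lower, with −0.27 for 1428288_at, −0.23 for 1428289_at, −0.33 for 1422264_s_at and −0.54 for 1436952_at (limma adjusted p = 0.0312, 0.0499, 0.0324 and 0.00711). The dimmest, 1452723_at, gave 0.19 and overlapped. The remaining one, 1436763_a_at, was higher in all 3 LC-HFD lungs (7.96, 7.92 and 8.02) than in the LC-RD lungs (7.75, 7.80 and 7.68), a difference of 0.22 that did not pass (limma adjusted p = 0.0655) except under 6 alternatives. The change of that probe set differed from that of the lead by 0.41, without overlap between the groups (exact permutation p = 0.1, two-sided, 0.233 after adjustment over the 14 pairs). The calls of 1428289_at and 1422264_s_at were lost under 10 of 15 alternatives, that of 1428288_at under 7 and that of 1436952_at under 1, the integrity covariate. With that covariate 1436952_at differed by −0.59 (adjusted p = 0.0555), and the other 3 by −0.29 to −0.22. Leaving out LC-RD replicate 2 gave −0.26 for 1428288_at (adjusted p = 0.112), −0.22 for 1428289_at (adjusted p = 0.156) and −0.32 for 1422264_s_at (adjusted p = 0.108).

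*Ddit4* encodes REDD1, an inhibitor of mTORC1 that glucocorticoids, hypoxia and DNA damage induce. It read 7.67, 7.63 and 7.69 in LC-HFD lungs, against 8.82, 8.83 and 8.79 in LC-RD lungs. The 3 lungs of a group were nearly alike, and the groups lay far apart. The difference was −1.15 (95% interval −1.31 to −0.99, limma adjusted p = 0.000193), which is 2.22-fold lower.

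*Arrdc3* encodes an alpha-arrestin, an adaptor that brings ubiquitin ligases to receptors such as the beta2-adrenergic receptor. It read 7.05, 6.65 and 7.04 in LC-HFD lungs, against 8.58, 8.69 and 8.64 in LC-RD lungs. LC-HFD replicate 2 was the lowest, and all LC-HFD lungs lay far under the LC-RD lungs. Its difference of −1.72 was the largest of the 24 probe sets (95% interval −2.01 to −1.44, limma adjusted p = 0.000326), a 3.30-fold decrease. Of all probe sets, 0.0933% had a more negative difference.

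The relative *Arrdc2*, of the same arrestin family, read 5.05, 5.24 and 5.51 in LC-HFD lungs, against 5.20, 5.22 and 5.06 in LC-RD lungs. The groups overlapped, and the LC-HFD lungs were spread more widely (SD 0.230, against 0.0865 in LC-RD). The difference was 0.11 with an interval of −0.18 to 0.40, and it turned to −0.01 without LC-HFD replicate 3. It is the dimmest lead of the 10, and the only one with a mean log2 value under 6.

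*Mt2* encodes metallothionein 2, a small cysteine-rich protein that binds zinc and copper and answers both glucocorticoids and metals. It read 8.82, 8.80 and 8.84 in LC-HFD lungs, against 9.71, 9.79 and 9.81 in LC-RD lungs. The LC-HFD lungs were nearly alike and all under the LC-RD lungs. The difference was −0.95 (95% interval −1.11 to −0.78, limma adjusted p = 0.000389), or 1.93-fold lower. *Mt1*, its neighbor on chromosome 8 and close relative, fell by 0.49 on its lead, with 10.28, 10.42 and 10.43 in LC-HFD and 10.91, 10.89 and 10.81 in LC-RD (limma adjusted p = 0.00543), and its other probe set gave −1.60. The lead of *Mt1* (_s_at), like 1419874_x_at of *Zbtb16*, 1425557_x_at of *Tsc22d3* and 1422264_s_at of *Klf9*, belongs to a class of probe sets that can also read related transcripts. *Mt1* is counted among 10 genes of zinc handling, with 2 lower, 2 higher and 6 that did not pass. The count of higher genes was 0 with the integrity covariate and 1 without any single array but LC-HFD replicate 2. *Slc30a1*, a zinc exporter that zinc induces, fell by 0.46 (0.07 on its other probe set), and *Mtf1*, the factor that reads zinc levels, rose by 0.54 (adjusted p = 0.00576 and 0.00881, limma).

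The glucocorticoid receptor and the enzymes that supply its ligand showed no change that passed by their leads. *Nr3c1*, the receptor, read 8.79, 8.79 and 8.74 in LC-HFD lungs, against 8.64, 8.76 and 8.67 in LC-RD lungs. Its lead differed by 0.08 (adjusted p = 0.423, limma), and 1 of its 6 probe sets was lower, within a range of −0.60 to 0.38. *Hsd11b1*, which regenerates active hormone, gave −0.20 (adjusted p = 0.0924), and *Hsd11b2*, which inactivates it, 0.16 (adjusted p = 0.193). *Nr3c2*, the mineralocorticoid receptor that binds the same hormone, fell by 0.69 (adjusted p = 0.00282). The chaperone genes *Hspa1b*, *Hspa1a* and *Dnajb1* rose by 1.11, 0.84 and 0.48 (adjusted p = 0.000221, 0.000620 and 0.00403). In all, 1 of 16 measured genes of receptor and ligand supply was lower (6.25%, against 16.2% of all leads). By limma 3 were higher (18.8%, against 11.1%) and 12 did not pass. At an unadjusted p under 0.05, 2 were lower and 6 higher. The intensity trend gave 3 lower and 5 higher, and a minimum mean log2 value of 6 gave 1 lower and 6 higher of 13. Among the 12, *Hspa8* had 2 of 4 probe sets higher (up to 0.96) and *Fkbp4* 1 of 3 (1.01).

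Coactivators and corepressors of the receptor mostly did not pass, with 1 lower, 1 higher and 8 of 10 not passing. With the integrity covariate both counts were 0, and without any single LC-RD array the count of lower genes was 0. *Carm1*, a methyltransferase of histones, rose by 0.71 (adjusted p = 0.00442), and *Med14*, a Mediator subunit, fell by 0.53 (adjusted p = 0.0180) with a range up to 0.39 over its 5 probe sets.

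Other genes known to respond to glucocorticoids moved in both directions. Of 37 measured, 14 were lower (37.8%), 7 higher (18.9%) and 16 did not pass by limma, against 16.2% and 11.1% of all leads, and their median was −0.13. *Gadd45g*, a growth arrest gene, fell by 1.48 (6.49, 6.60 and 6.44 in LC-HFD, against 7.99, 8.04 and 7.93 in LC-RD, adjusted p = 0.000126). *Dusp1*, whose product inactivates MAP kinases, fell by 1.37 (9.30, 9.16 and 9.21 in LC-HFD, against 10.60, 10.61 and 10.55 in LC-RD, adjusted p = 0.000139). *Rasd1*, a Ras-like gene named for its induction by dexamethasone, fell by 1.19 (adjusted p = 0.00232). *Pdk4*, a kinase that spares glucose in favor of fatty acids, rose by 0.94 (7.46, 7.45 and 7.24 in LC-HFD, against 6.54, 6.42 and 6.34 in LC-RD, adjusted p = 0.00107). *Per1*, a clock gene with a response element of its own, gave 0.02 (adjusted p = 0.882). *Per1*, *Tsc22d3* and *Fkbp5* are all widely used to read the hormone's action, and their differences were 0.02, −0.11 and −0.45. Those of *Sgk1* and *Dusp1*, which it also induces, were −1.27 and −1.37, and *Pdk4* rose. The part of the hormone in any of these differences was not tested.

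**Figure D3:**
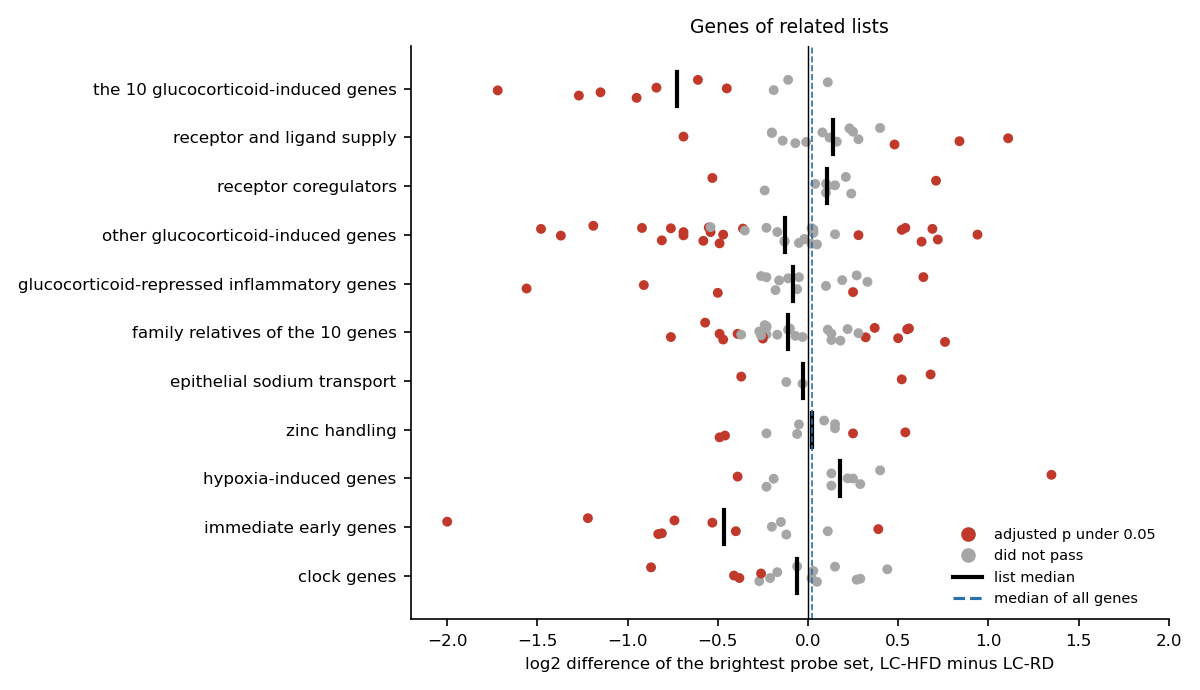
Log2 difference of the lead probe set, LC-HFD minus LC-RD (horizontal axis), for each gene of the 10 members and of related lists; each point is 1 gene, red where it passed by limma. Black lines are list medians and the dashed line the median of all genes, 0.02; the members have a median of −0.73 and the immediate early genes of −0.46.

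Inflammatory genes that glucocorticoids repress gave 3 lower, 2 higher and 11 not passing of 16, with a median of −0.08. Their shares of 18.8% lower and 12.5% higher were near those of all leads, 16.2% and 11.1%. With array weights 4 were higher, and a minimum mean log2 value of 4 gave 5 lower and 3 higher of 13. The count of higher genes was 0 with the integrity covariate and 1 without LC-HFD replicate 2 or 3 or any LC-RD array, and the count of lower genes was 5 without LC-HFD replicate 1. *Csf2* (GM-CSF) fell by 1.56, *Il6* fell by 0.91 and *Il1b* fell by 0.50, and *Nos2*, which makes nitric oxide, rose by 0.64 (adjusted p = 0.000175, 0.00539, 0.00307 and 0.00375, limma). *Il6* and *Nos2* were dim, with group means between 3.91 and 5.11.

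Immediate early genes, which rise within minutes of a stimulus or of tissue handling, had 7 of 12 lower (58.3%, against 16.2% of all leads), 1 higher and 4 not passing, with a median of −0.46. Their part in the members' decrease was not tested. *Fos* fell by 2.00 (adjusted p = 3.59e-05), *Egr2* fell by 1.22 (adjusted p = 0.00126) and *Egr1* fell by 0.83 (adjusted p = 0.000804). *Zfp36*, which is also among the 37 hormone-responsive genes, fell by 0.81 (adjusted p = 0.00106). Clock genes had 4 of 15 lower (26.7%, against 16.2% of all leads and 23.4% of the brighter ones), 0 higher and 11 not passing by limma (5 lower and 2 higher at an unadjusted p under 0.05, 3 and 0 by the methods' t-test), with a median of −0.06. With the integrity covariate the count of lower clock genes was 0, and without LC-HFD replicate 1 the count of higher ones was 2. *Dbp*, a direct output of the clock, fell by 0.87 (adjusted p = 0.00786), *Cry2* fell by 0.41 (adjusted p = 0.00920), *Nr1d2* fell by 0.38 (adjusted p = 0.00924) and *Per3* fell by 0.26 (adjusted p = 0.0416).

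Several lists of cell type markers also held genes that passed. Of 3 club cell markers 2 were lower, *Scgb3a2* at −0.53 and *Cyp2f2* at −0.29. Cardiac markers had 3 of 5 lower and 2 not passing, with a list mean of 4.29 to 4.37 in LC-HFD and 4.73 to 5.01 in LC-RD. Macrophage markers had 2 of 5 higher and 3 not passing, among them *Cd68* at 0.11, with list means of 9.68 to 9.71 in LC-HFD and 9.46 to 9.47 in LC-RD. Of the 3 measured fat cell markers, 1 was higher by limma and 0 by the methods' t-test, and 2 had a mean log2 value under 4. The higher one, *Adipoq*, is 1 of those 2, with group means of 3.32 in LC-HFD and 2.62 in LC-RD. The brightest, *Cidec*, gave 0.18 and did not pass. Endothelial and fibroblast markers each had 2 of 4 lower and 1 higher, and B cell markers 1 of 3 lower and 1 higher. The alveolar type I and type II lists each had 1 of 4 higher and 0 lower. The type II lead of *Sftpc* read 13.81 in every lung (SD 0.000473 in LC-HFD and 0.000924 in LC-RD), too constant to read a change from. The other of its 2 probe sets was higher, at 1.45. *Abca3*, the type II marker that was higher by its lead (0.30), had 1 of 3 probe sets lower, at −0.49. Among leads of all genes 16.2% were lower and 11.1% higher. What these cells contributed to the members was not tested.

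**Figure D4:**
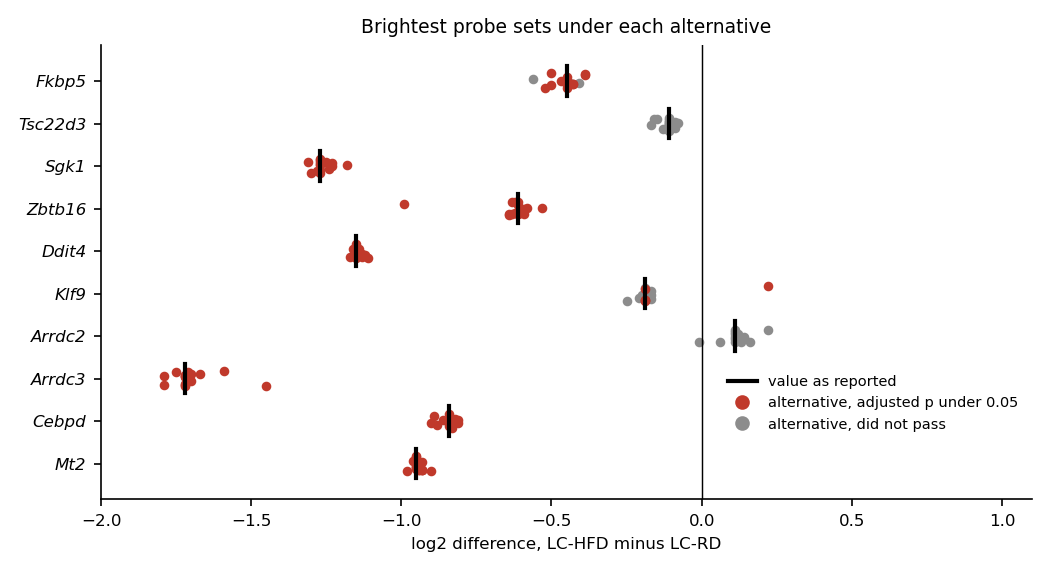
Log2 difference, LC-HFD minus LC-RD, of the 10 lead probe sets (horizontal axis) as reported (black bar) and under each alternative (points, red where the adjusted p was under 0.05). *Arrdc3*, *Sgk1*, *Ddit4*, *Mt2*, *Cebpd* and *Zbtb16* stayed lower and passed throughout, *Fkbp5* stayed lower and lost its call under 3, and *Klf9* and *Arrdc2* each crossed 0 once.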

How the data were processed

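The authors hybridized labeled lung RNA to Affymetrix mouse expression arrays, 1 per mouse, and deposited GCRMA log2 values, 1 for each probe set of each array, without pooling. GCRMA is named in the submitters' processing notes and Partek in the paper, both with no version found in the sources used here. Array medians lay between 4.78 and 4.83, no further normalization was applied, and the number of arrays limits the precision. All columns per sample were used (0 unused). After removal of 64 control probe sets, 45037 remained. Of all probe sets, 34945 belong to exactly 1 gene by the platform annotation, and 34741 symbols were looked up by Entrez ID.

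LC-HFD (labeled HFD+Dox) was compared with LC-RD (RD+Dox) by limma 3.58.1 (R 4.3.3) with its defaults, in two-sided tests adjusted by Benjamini-Hochberg over all 45037 probe sets. Lists were described by counts on the lead of each gene. The members and lists were chosen with earlier results of these data known. Every member and probe set was named, and up to 4 passing genes of each list with the largest difference, besides *Nr3c1*, *Hsd11b1*, *Hsd11b2*, *Mt1*, *Per1* and *Dusp1*. Cell type marker lists were given by counts of their leads, and single markers were named for some lists only. The alternatives tried were the methods' t-test, limma with an intensity trend and robust variance, limma with array weights, values after quantile normalization or after median centering, filters on a mean log2 value of 4 or 6, the replicate number as a block, the integrity measure as a covariate, the median over a gene's probe sets, and each array left out. The values are on the log scale, so no pseudocount applied. The steps were tested on simulated data. Python 3.11.15 and matplotlib 3.10.9 drew the figures.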

Additional observations from a re-analysis of the deposited data

Results flagged for a closer look

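Hybridization controls, bacterial and phage sequences that do not come from the mouse and enter no comparison of the genes above, were higher on the LC-HFD arrays by 1.48 log2 units over 18 probe sets (11.5 ± 0.0254 in LC-HFD and 10.0 ± 0.0168 in LC-RD, exact permutation p = 0.1, two-sided, the smallest possible). They stand here because a signal outside the main measurement lay above its level in the LC-RD arrays.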

How the results depend on the processing

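The decreases of *Arrdc3*, *Sgk1*, *Ddit4*, *Mt2*, *Cebpd* and *Zbtb16* kept their direction and their call under each of the 16 alternatives run for their leads. The count of lower probe sets was 10 to 13 when 1 array was left out, and 8 with the integrity measure as a covariate. The shares of all probe sets were 7.21% to 13.5% and 4.42%. The count of higher probe sets was 1 with the methods' t-test, the intensity trend, quantile normalization, median centering and the minimum mean log2 values of 4 and 6. That probe set was 1436763_a_at of *Klf9* each time. With the median over a gene's probe sets the count of higher genes was 1, since *Klf9* then gave 0.22 (adjusted p = 0.0443), its median level falling on that same probe set, and *Zbtb16* gave −0.99. Of the probe sets that did not pass, 1427638_at of *Zbtb16* turned to −0.02 with the covariate and ranged from −0.01 (without LC-HFD replicate 2) to 0.25 when 1 array was left out, and *Arrdc2* turned to −0.01 without LC-HFD replicate 3. The cause was not tested. Leaving out 1 array gave 6 to 7 lower leads, 0 higher leads and 0 higher probe sets, with 3 leads and 3 to 4 probe sets lower by over 2-fold. The labels do not say whether the replicate numbers pair the mice. Deviations of arrays with the same number correlated at −0.0431, −0.0930 and −0.0303, and those with different numbers at −0.0360 to 0.0803. No pairing was seen in these values, but 3 arrays per group are too few to exclude it. With the replicate number as a block, 11 of 24 probe sets and 7 of 10 leads were lower, against 9.87% of all probe sets. Dim probe sets such as 1447736_at of *Fkbp5* limit what can be read.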

Other observations

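Of 31 measured family relatives of the 10 genes, 7 were lower (22.6%, against 16.2% of all leads), 6 higher (19.4%, against 11.1%) and 18 did not pass, with a median of −0.11. The count of lower relatives was 2 with the integrity covariate, 4 without LC-RD replicate 2, 11 with a minimum mean log2 value of 4 and 14 with one of 6 or with the intensity trend, and 3 were higher with the covariate. *Fkbp8*, an immunophilin of the mitochondrial membrane, rose by 0.76 (adjusted p = 0.00109, limma), and *Cebpa*, a factor of lung epithelial differentiation, by 0.56 (adjusted p = 0.00314). The Krüppel-like factor genes *Klf15* and *Klf10* fell by 0.76 and 0.57 (adjusted p = 0.00231 and 0.00420), and *Klf15* is also known as a gene that glucocorticoids induce.

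Genes that hypoxia induces, as it does *Ddit4*, gave 1 higher, 1 lower and 8 not passing of 10, with a median of 0.18. Over the alternatives 0 to 2 were lower and 1 to 3 higher, with 2 higher when any single LC-HFD array was left out. *Ankrd37* rose by 1.35 (6.78, 6.70 and 6.69 in LC-HFD, against 5.35, 5.50 and 5.27 in LC-RD, adjusted p = 0.000226, limma), and *Bnip3*, which acts in the removal of mitochondria, fell by 0.39 (adjusted p = 0.00748).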
